A study of Mus musculus with 96 samples.

Results

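The genes described here are the molecular chaperones and co-chaperones expressed in the cerebellum of Htt knock-in mice. They were taken by symbol: the protein-coding genes of the deposited count table named Dnaja, Dnajb, Dnajc, Hspa, Hspb, Hspd, Hspe, Hsph, Cct or Bag followed by a number, together with the Hsp90 genes. This gave 85 of the 39179 genes in the table. By family they were 4 Dnaja, 13 Dnajb, 28 Dnajc, 12 Hspa, 8 Hspb, 3 Hsp90, 8 Cct and 6 Bag genes, with Hspd1, Hspe1 and Hsph1 making up the last 3. A further 12 symbols fitted the pattern without being annotated as protein coding in the GENCODE M21 annotation and were left out. Among these was Cct6a, a subunit gene of the cytosolic chaperonin, at a mean of 50.1 FPKM (the authors' unit, fragments scaled by transcript length and sequencing depth).

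Messenger RNA was sequenced from whole cerebellum of male and female C57BL/6 mice at 6 and 10 months of age, in 96 libraries. The groups at each age were wild types housed with Q20 mice, wild types housed with Q50 mice, and heterozygotes for a knock-in Htt allele of nominally 20, 50, 92 or 140 CAG repeats, written Q20, Q50, Q92 and Q140. Each held 8 libraries, 4 from males and 4 from females. The knock-in heterozygotes keep 1 wild-type Htt allele, and the Q20 allele has a repeat in the range that does not cause Huntington disease, which made Q20 the comparison for Q92 and Q140 here. By the labels, Q20 and Q50 mice were housed with wild types and heterozygotes, and Q92 and Q140 mice with heterozygotes of their own kind. None of the wild types here came from Q92 or Q140 cages. In Q140 against Q20 the repeat length therefore cannot be told apart from the housing. The labels do not say whether each library came from a different animal, and p-values then measure the spread between these libraries.

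Chaperones bind unfolded or misfolded proteins. Hsp70 proteins (the Hspa genes) hold and release a client in cycles of ATP hydrolysis, J-domain proteins (Dnaja, Dnajb, Dnajc) bring clients to them and trigger hydrolysis, and Bag proteins and Hsph1 exchange the nucleotide so that the client is let go. Hsp90 acts late on near-native clients, the Cct genes code for the ring-shaped chaperonin that folds actin and tubulin, and the small heat shock proteins (Hspb) hold unfolded protein without ATP. In Huntington disease the expanded polyglutamine stretch of huntingtin aggregates, and several of these proteins, among them Dnajb1, Dnajb2, Dnajb6, the Hspa proteins, Hsph1 and the Hspb8 and Bag3 pair, delay that aggregation in cell models.

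Library totals lay between 29957797 and 39477325 estimated counts, with a median of 34251076. Levels of a gene across libraries are given below in CPM (counts scaled by library size and TMM factor), and levels between genes in FPKM. On the leading principal component of all tested genes, 11 libraries of 6 months and 1 of 10 months lay more than 3 scaled median absolute deviations from the median of their age, and 4 of the 11 were among the 8 Q20 libraries. Htt itself, whose reads do not measure the repeat, lay between 141 and 330 CPM with a median of 290 CPM. Markers of granule neurons and Purkinje cells, the cells that define this tissue, were high in all libraries: Gabra6 lay between 329 and 776 CPM and Pcp2 between 133 and 440 CPM.

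The chaperone genes together held 0.969% of all counts on average, with a range over libraries of 0.907% to 1.10%. In FPKM the constitutive cytosolic members stood far above the rest. Hspa8, the constitutive cytosolic Hsp70, averaged 735 ± 71.9 FPKM over the 96 libraries (SD, n = 96), which was 20.3% of the summed FPKM of all 85 genes. Hsp90ab1, the constitutive cytosolic Hsp90, averaged 420 ± 19.6 FPKM (SD, n = 96) and held 11.6% of that sum. Hsp90aa1, its inducible partner, averaged 309 FPKM and held 8.53%.

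Below these came a broad middle rank with several compartments in it. Hsp90b1 and Hspa5, the Hsp90 and Hsp70 of the endoplasmic reticulum (ER), averaged 127 and 94.3 FPKM. Hspa9, the mitochondrial Hsp70, averaged 86.2 FPKM, and its partners Hspd1 and Hspe1, the mitochondrial chaperonin and its lid, averaged 70.2 and 45.2 FPKM. The highest J-domain genes were Dnajc7, which holds clients between Hsp70 and Hsp90, at 86.3 FPKM, Dnajb6, a suppressor of polyglutamine aggregation in cell models, at 77.1 FPKM, Dnaja1, a general Hsp70 partner, at 75.6 FPKM, and Dnajc5, the synaptic vesicle protein CSPα, at 74.5 FPKM. Dnajc6, the brain form of auxilin, which uncoats clathrin vesicles, averaged 56.3 FPKM, Dnaja2 56.0 FPKM and the neuronal Dnajb2 29.2 FPKM. The Cct subunits Cct8 and Cct5 averaged 75.4 and 73.6 FPKM, and the Bag genes were led by Bag6 at 66.2 FPKM and Bag1 at 47.5 FPKM.

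Several stress-inducible members were low, while others of that kind, such as Hsp90aa1, Dnaja1 and Hspe1 above and Hsph1 at 32.2 FPKM, were not. Hspa1a and Hspa1b, the classic heat-induced Hsp70 genes, averaged 2.10 and 1.46 FPKM, Bag3, which pairs with Hspb8 to send aggregates to autophagy, 8.73 FPKM, and Dnajb1, the heat-induced J-domain gene, 14.97 FPKM. The small heat shock genes had the lowest family median, 3.35 FPKM over 8 genes, against 309 FPKM over the 3 Hsp90 genes and 54.5 FPKM over the 8 Cct genes. Their highest members were Hspb8 at 8.27 FPKM, Hspb11, an intraflagellar transport protein by function, at 7.97 FPKM, Hspb1 at 6.35 FPKM and Hspb6 at 5.95 FPKM. Dnajc5g was at 0 in all 96 libraries, Dnajb8 in 92, Dnajc5b in 52, Dnajc22 in 36 and Hspb9 in 17. For 72 of the 85 genes the mean log2 CPM was at least 1.

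**Figure D1:**
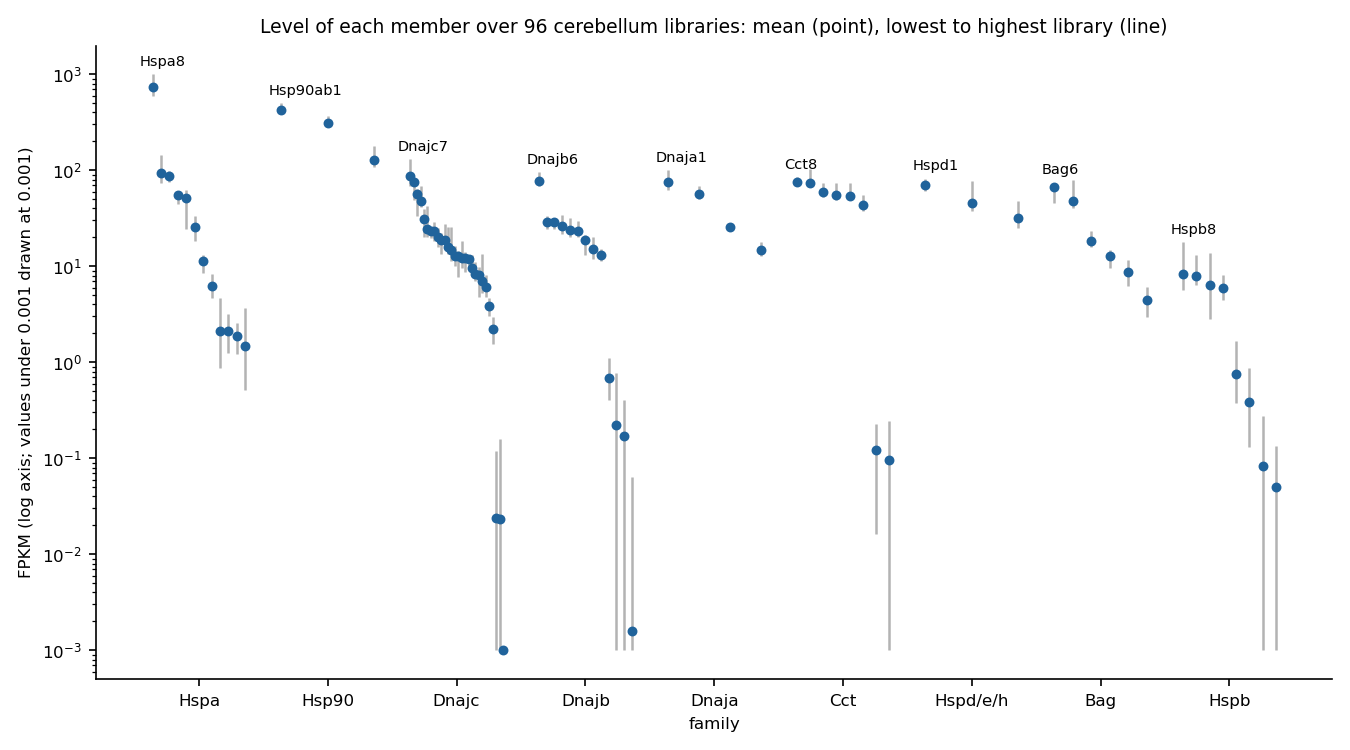
Mean FPKM over 96 libraries for each chaperone gene, on a log axis and arranged by family, with the range over libraries as a line. Hspa8 at 735 FPKM stands at the top of its family and Hspa1b at 1.46 FPKM at the bottom, and the small heat shock genes sit below 10 FPKM.

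How far a gene varied between libraries of the same group and sex also differed by type. After group and sex were removed, the largest standard deviations of log2 CPM among the 72 better-expressed genes belonged to Hspa1b (0.50), Hspa1a (0.44), Hspb1 (0.42), Hspa12b (0.24), Hspb8 (0.23) and Hspa1l (0.20). The smallest belonged to Dnaja3 (0.05), a mitochondrial J-domain gene, Dnajc14 (0.06) and Hsp90ab1 (0.06). Some of these counts are uncertain because reads can be shared: 60.4% of the 50-base words of Hspa1a exons and 62.3% of those of Hspa1b also occur in other annotated genes, as do 48.8% for Hspb1 (a processed copy, Hsp25-ps1), 47.5% for Hsp90aa1, 39.7% for Hspd1 and 38.6% for Hspa8. Hspa1l has 71.9% and Dnaja4 44.1% of its exon bases under an exon of the opposite strand, and the sources do not say whether counting used strand.

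No chaperone gene passed the test in any comparison of Htt genotypes. Of 77 tested at 10 months, 0 passed in Q140 against Q20 at an adjusted p under 0.05 in edgeR's quasi-likelihood F-test (Benjamini-Hochberg over all genes tested), where 2.08% of 16947 genes passed. At 6 months 0 of 77 passed, where 0.147% of 17020 genes passed. That share rests on 25 genes, a count that ran from 17 to 900 when 1 library was left out, and the count of 39 behind the slope at 6 months given below ran from 13 to 1294. In Q92 against Q20, 0 of 77 passed at either age, against 0.224% of all genes at 10 months and 0.0118% at 6 months. In Q50 against the wild types of their cages the count was also 0 at both ages, against 0.0531% and 0.0118% of all genes at 10 and 6 months, and in Q20 against the wild types of their cages it was 0, against 0.0118% at each age. The slope over repeat length in the 4 knock-in groups passed for 0 of 77 genes at 10 months, where 2.06% of all genes passed, and for 0 at 6 months, where 0.229% passed.

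At an unadjusted p under 0.05, Q140 against Q20 gave 4 of 77 chaperone genes at 10 months (5.19%, against 13.9% of all genes) and 21 of 77 at 6 months (27.3%, against 23.4%). For Q92 against Q20 the counts were 8 at 10 months (10.4%, against 16.2% of all genes) and 20 at 6 months (26.0%, against 24.9%). For Q50 against its wild types they were 2 (2.6%, against 4.77%) and 0 (against 1.05%), and for Q20 against its wild types 4 (5.19%, against 8.88%) and 2 (2.6%, against 6.23%). For the slope they were 6 (7.79%, against 13.6%) and 22 (28.6%, against 23.7%). DESeq2 called 1 chaperone gene of 77 in Q140 against Q20 and 1 in the slope at 6 months, the small heat shock gene described next. Over all 17020 genes it called 173 and 231 in the same comparisons. The difference of Q140 against Q20 between ages passed for 0 of 80 genes and 0.0% of all 17384 genes, with 4 of 80 at an unadjusted p under 0.05 (5.0%, against 4.99% of all genes). The difference between males and females passed for 0 of 80 and 0.0%, with 3 of 80 at an unadjusted p under 0.05 (3.75%, against 4.65%). DESeq2 called 4 genes of the table in the sex difference, none of them a chaperone gene.

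The intervals limit how large a missed change could be. Among the 72 better-expressed genes, the 95% confidence interval of Q140 over Q20 lay within 0.25 of 0 on the log2 scale for 60 genes at 10 months and 46 genes at 6 months, and within 0.5 for 68 and 67 genes. The median distance from the estimate to either end was 0.09 at 10 months and 0.13 at 6 months. The estimates ran from −0.29 (Hspa12b) to 0.12 (Hspa13) at 10 months and from −0.52 (Hspb1) to 0.25 (Dnajc6) at 6 months. For Hspa8 the estimate was −0.08 (interval −0.20 to 0.03) at 10 months and −0.02 (−0.15 to 0.11) at 6 months, and for Hsp90ab1 −0.02 (−0.08 to 0.05) and 0.04 (−0.03 to 0.10). By family, the medians at 6 months lay between −0.05 and 0.02 except for the Hspb genes, whose median was −0.31 over 6 tested genes with 0 of 6 above 0, against a median of −0.01 over all genes. At 10 months the Hspb median was −0.07 over 6 genes, with 0 of 6 above 0, and that of Hspd1, Hspe1 and Hsph1 was −0.14 with 0 of 3 above 0. For these 3 genes the Q140 median against the 16 wild types of 10 months was 0.02, with 2 of 3 above 0. Their median in Q20 against the wild types of their cages was 0.04 at that age, with 3 of 3 above 0. The Hspb median against the 16 wild types of 10 months was −0.08, with 2 of 6 above 0. In Q92 against Q20 the Hspb median was 0.09 at 10 months with 6 of 6 above 0, and −0.15 at 6 months with 0 of 6 above 0. In Q20 against the wild types of their cages at 6 months it was 0.08 with 5 of 6 above 0, and against the 16 wild types of that age the Q140 median was −0.21.

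**Figure D2:**
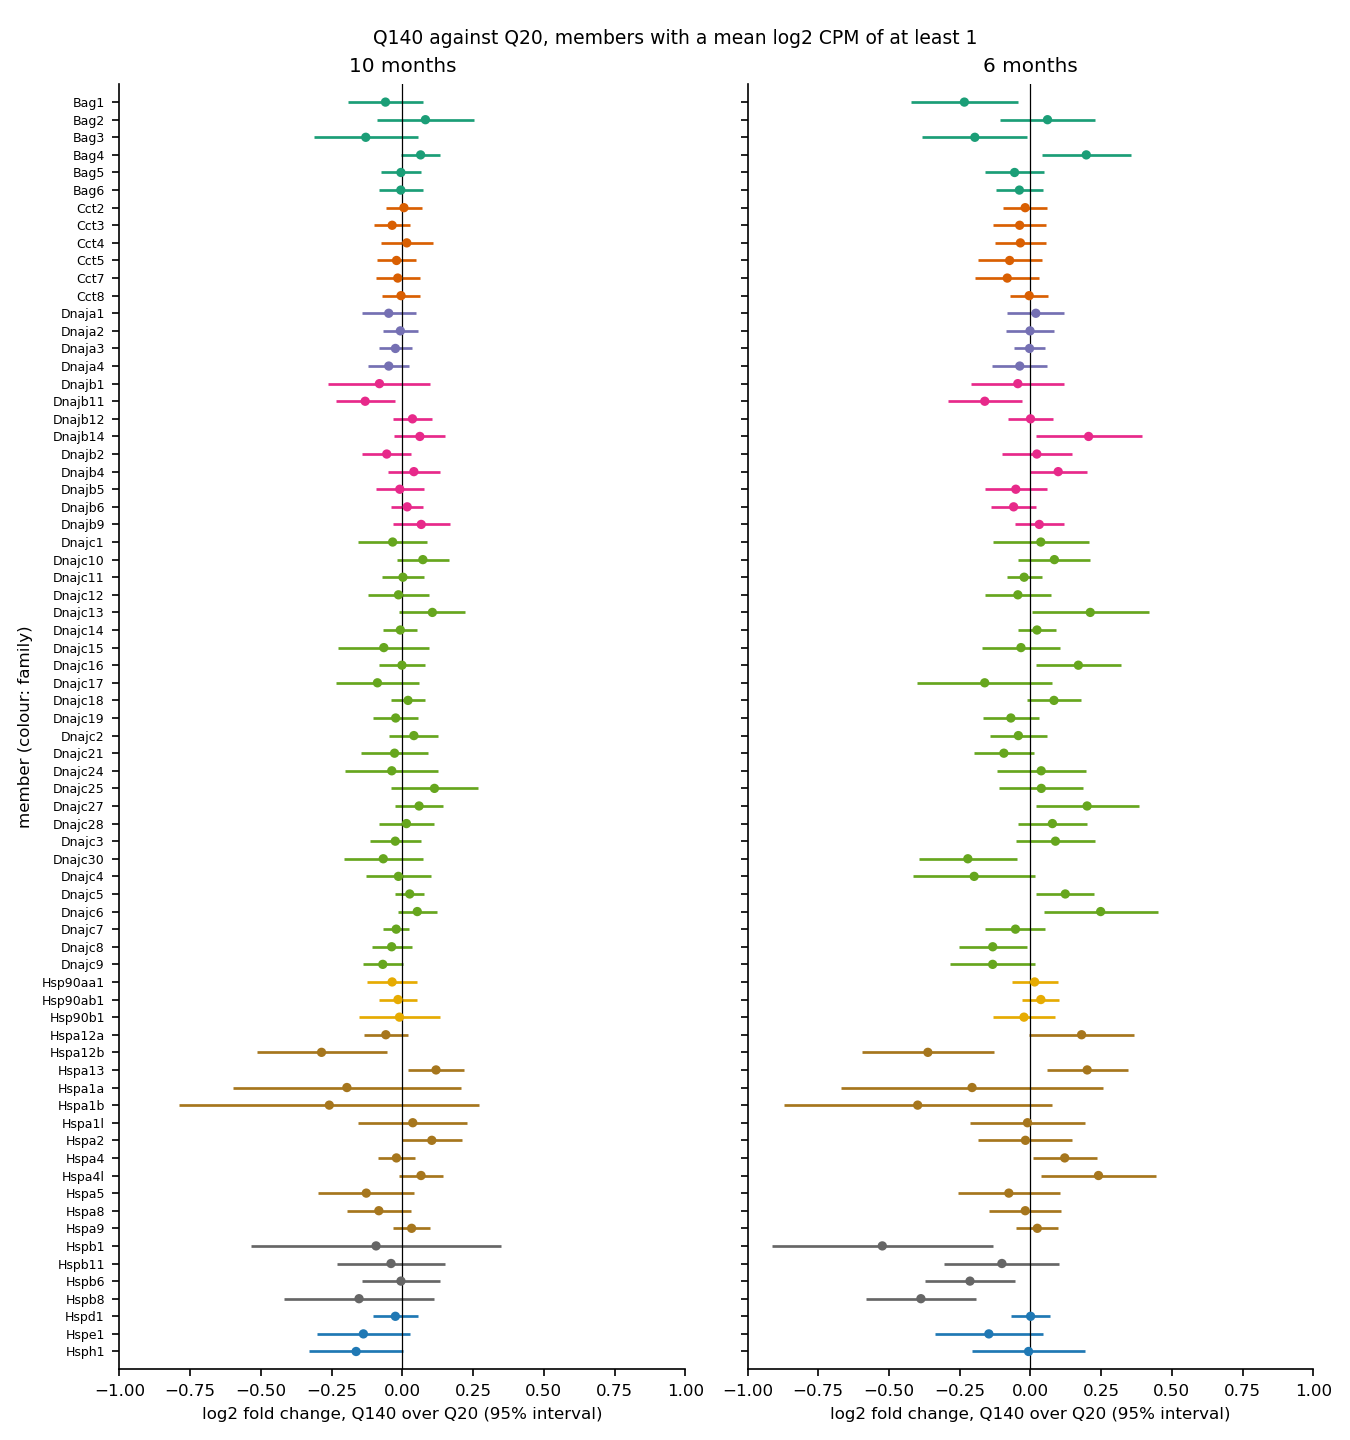
Log2 fold change of Q140 over Q20 for each of the 72 better-expressed chaperone genes, arranged by family, at each age, with 95% confidence intervals from edgeR (8 libraries per group). The intervals gather around 0 at both ages, and the lowest points at 6 months belong to Hspb1 at −0.52, Hspa1b at −0.40, Hspb8 at −0.39 and Hspa12b at −0.36.

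Hspb8, the small heat shock protein that works with Bag3 on aggregated clients, came closest to the threshold. At 6 months its lowest, median and highest levels were 11.8, 15.6 and 19.6 CPM in wild types of Q20 cages, 12.6, 15.4 and 17.8 CPM in wild types of Q50 cages, 14.1, 16.1 and 17.3 CPM in Q20, 12.2, 14.7 and 19.2 CPM in Q50, 12.1, 13.2 and 19.5 CPM in Q92, and 10.4, 11.8 and 16.2 CPM in Q140. In Q140, 7 of the 8 libraries lay between 10.4 and 12.5 CPM, below every Q20 library, and the remaining one overlapped the Q20 range. The means were 12.1 ± 1.75 CPM in Q140 and 15.9 ± 1.37 CPM in Q20 (SD, n = 8 each). The log2 fold change was −0.39 ± 0.10 (SE; 95% interval −0.58 to −0.19; adjusted p = 0.0689), and against the 16 wild types of the age it was −0.35 ± 0.08 (adjusted p = 0.0553). The slope at 6 months was −0.32 ± 0.08 per 100 CAG (adjusted p = 0.0506).

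These Hspb8 values sit at the threshold and their side of it changes with the fit. Over 9 other settings of Q140 against Q20 at 6 months the log2 fold change lay between −0.43 and −0.35 and the adjusted p between 0.0233 and 0.101, with 1 of 9 calling it. Leaving out each of the 48 libraries in turn gave −0.47 to −0.35 and adjusted p-values of 0.00591 to 0.176, with 2 of 48 calling it. Over these fits the count of all genes called ran from 17 to 900. The lowest p came without replicate 4 of the Q140 females, the library at 16.2 CPM, and the other call came without replicate 4 of the male wild types of Q20 cages. Both libraries are among the 11 that stood apart over all genes at 6 months. Without all 11 the log2 fold change was −0.43 (adjusted p = 0.101). The slope at 6 months was called in 4 of 8 other settings and in 18 of 48 fits without 1 library. At 10 months Hspb8 had lowest, median and highest levels of 11.8, 13.3 and 15.5 CPM in Q140 and 12.6, 14.7 and 17.5 CPM in Q20, with overlapping ranges and a log2 fold change of −0.15 ± 0.13 (adjusted p = 0.664). The difference between the ages was 0.24 (interval −0.09 to 0.56; adjusted p = 0.801).

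The other small heat shock genes at 6 months lay lower in Q140 on average without passing. Hspb1, the stress-induced Hsp25, had lowest, median and highest levels of 2.74, 4.81 and 5.96 CPM in Q140, against 3.596, 6.09 and 9.56 CPM in Q20, a log2 fold change of −0.52 ± 0.19 (adjusted p = 0.158). Hspb6, the small heat shock protein Hsp20, had 6.95, 7.44 and 8.36 CPM in Q140, against 6.74, 8.82 and 9.89 CPM in Q20, a change of −0.21 ± 0.08 (adjusted p = 0.159). The groups overlapped for both genes. Without replicate 4 of the Q140 females, the slope of Hspb1 at 6 months was called. Over the fits without 1 library, the slope was called for 13 to 1294 of all genes.

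Hspa12b, an atypical Hsp70 of endothelial cells, was low in Q140 at both ages without passing. At 10 months it had lowest, median and highest levels of 5.76, 6.16 and 6.96 CPM in Q140 and 6.30, 7.40 and 9.67 CPM in Q20, with a log2 fold change of −0.29 ± 0.11 (adjusted p = 0.214). At 6 months it had 4.94, 5.77 and 6.68 CPM in Q140 and 5.55, 7.33 and 9.77 CPM in Q20, with a change of −0.36 ± 0.12 (adjusted p = 0.124). The ranges overlapped at each age. The wild types of Q50 cages had medians as low as those of Q140, 6.12 CPM at 10 months and 5.76 CPM at 6 months, and against the 16 wild types the change was −0.07 at 10 months and −0.28 at 6 months. Fitted on the 2 compared groups alone, it was called at 10 months at an adjusted p of 0.0440. Hspa13, an ER-associated Hsp70, had the largest positive estimate at 10 months among the 72 better-expressed genes, 0.12 ± 0.05 (adjusted p = 0.240), and 0.20 ± 0.07 at 6 months (adjusted p = 0.152).

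**Figure D3:**
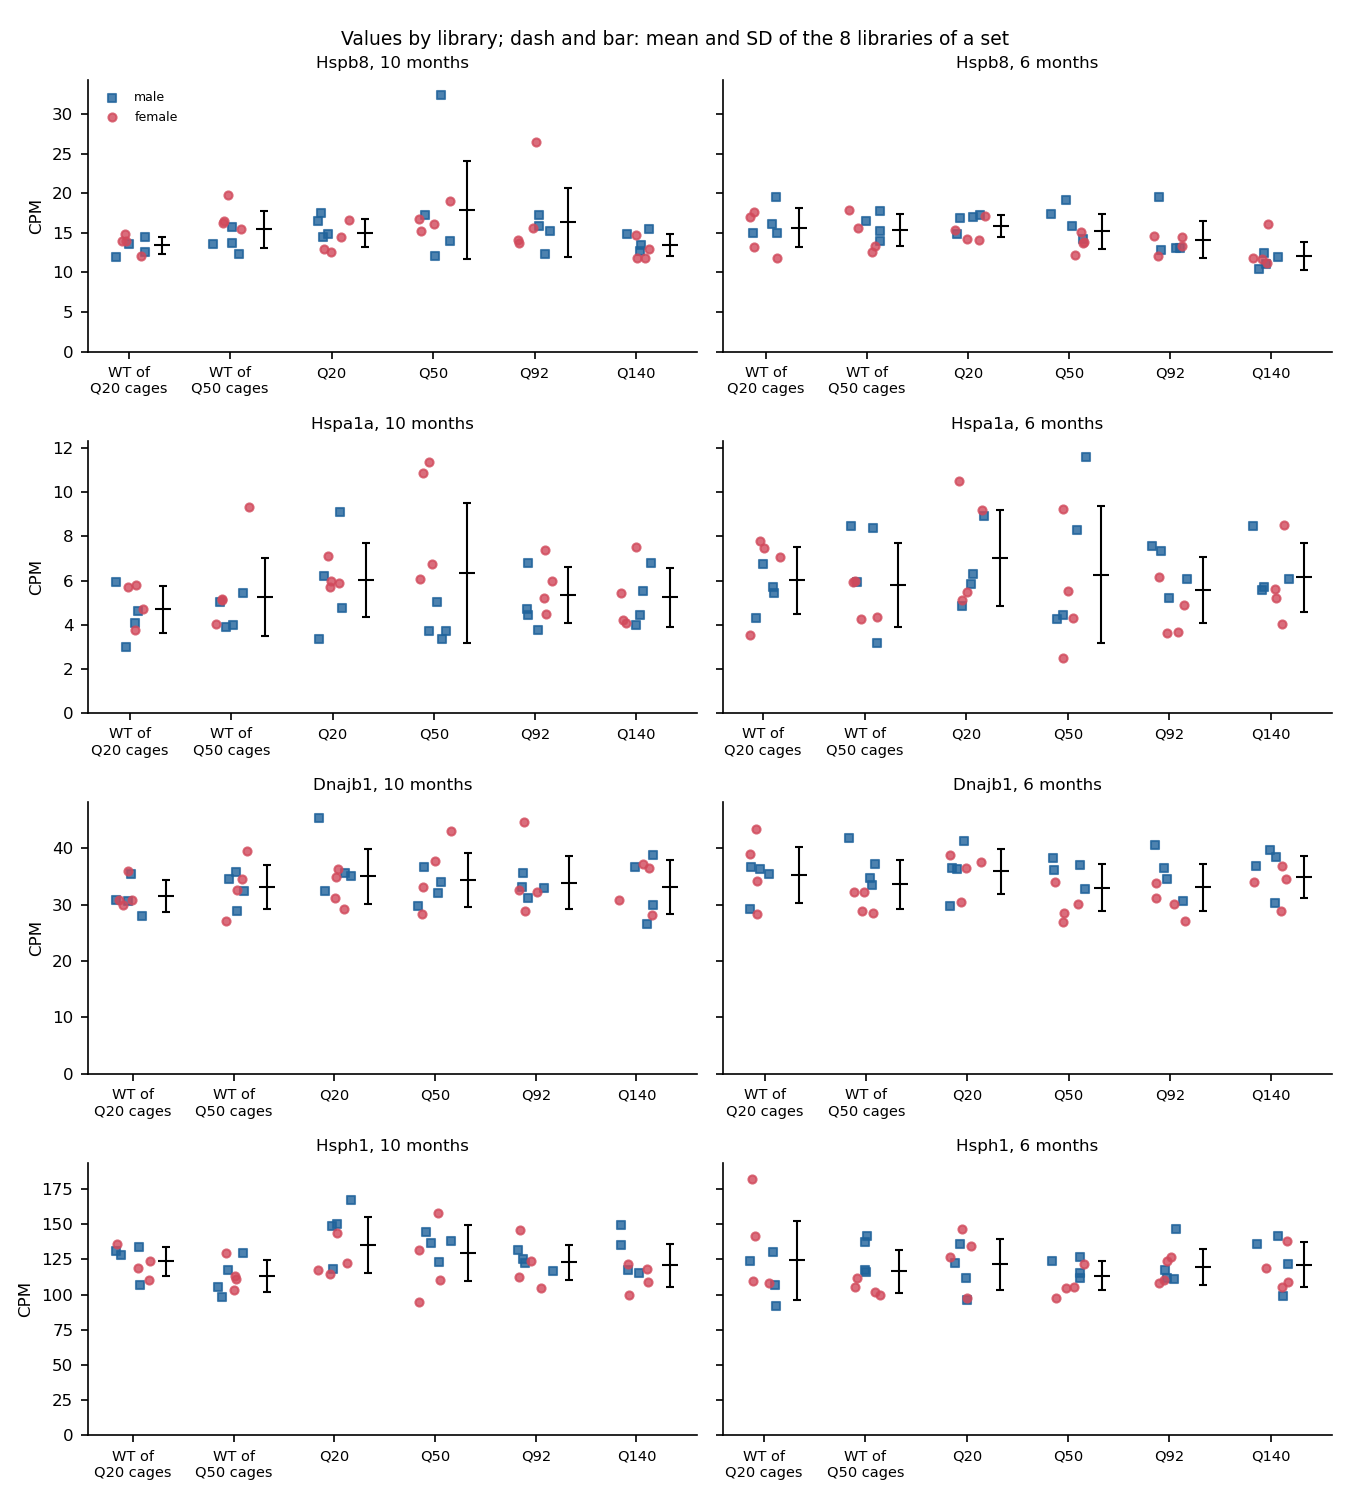
CPM of individual libraries (squares male, circles female) for Hspb8, Hspa1a, Dnajb1 and Hsph1 at each age, with groups in order of repeat length, wild types at the left, and a dash and bar for the mean and SD of 8 libraries. Hspb8 at 6 months lies between 10.4 and 16.2 CPM in Q140 and between 14.1 and 17.3 CPM in Q20, and Q140 and Q20 overlap in all panels.

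Some oligodendrocyte markers were called lower in the same comparison. The choroid plexus markers at 6 months and the endothelial and mural cell markers were not. At 6 months the 10 choroid plexus markers had a median log2 fold change of −2.75 in Q140 against Q20 with 0 of 10 called, and their summed level lay between 158 and 744 CPM in Q140 and between 208 and 3058 CPM in Q20, with Folr1 and Aqp1 at 0 in some libraries. At 10 months their summed level averaged 1149.5 CPM in Q140 (200 to 2749 CPM) and 1032.7 CPM in Q20 (204 to 2680 CPM), not lower in Q140. The 16 oligodendrocyte markers had a median of −0.29 at 6 months, 3 of them called lower (0.147% of all genes were called), and summed levels of 4065 to 6264 CPM in Q140 and 4793 to 10237 CPM in Q20. At 10 months 9 were called lower (2.08% of all genes were called), with a median of −0.39 and summed levels of 3814 to 5319 CPM in Q140 and 5616 to 8087 CPM in Q20. The wild types of Q20 and Q50 cages averaged 5575 and 5356 CPM at that age, between Q140 (4780 CPM) and Q20 (6575 CPM). Their ranges, 4412.5 to 6215 CPM and 3211 to 6476 CPM, overlapped both. At 6 months the wild types averaged 6603 and 5823 CPM, against 4967 CPM in Q140 and 6597 CPM in Q20. The 11 endothelial and mural cell markers had a median of −0.08 at 10 months and 0.04 at 6 months with 0 called at either age, and summed levels of 259 to 310.2 CPM in Q140 and 267 to 335 CPM in Q20 at 10 months, and 255 to 300.3 CPM in Q140 and 232 to 298 CPM in Q20 at 6 months. In bulk tissue, fewer cells of a type and less RNA per cell cannot be told apart. The part of these cells in the Hspb8 and Hspa12b values was not tested.

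Chaperone partners outside the symbol rule gave 3 calls in Q140 against Q20 at 10 months and 0 of 67 at 6 months. Creld2, a gene of the ER stress response, was lower, with lowest, median and highest levels of 9.12, 10.9 and 13.5 CPM in Q140 and 11.03, 12.4 and 15.8 CPM in Q20 (log2 fold change −0.23 ± 0.06; adjusted p = 0.0311; 1 of 17 ER folding genes). Tomm34, a cytosolic partner of Hsp70 and Hsp90 in mitochondrial import, was lower by −0.12 ± 0.03 (adjusted p = 0.0436; 1 of 24 co-chaperones and regulators), with 37.6, 39.8 and 43.2 CPM in Q140 and 41.1, 42.7 and 47.4 CPM in Q20. The ranges of Q140 and Q20 overlapped for both genes, and both were also called in the slope, at −0.18 and −0.11 per 100 CAG. Ubqln4, a ubiquilin that carries proteins to the proteasome, was lower by −0.11 ± 0.03 (adjusted p = 0.0455; 1 of 8). Against the 16 wild types of that age the changes were −0.02 for Creld2, −0.07 for Tomm34 and −0.03 for Ubqln4, and none passed. None of 9 chaperonin and prefoldin subunits and none of 9 mitochondrial folding genes passed.

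Heat-inducible genes are transcriptional targets of the heat shock factor Hsf1, which binds repeats of nGAAn in their promoters. Under that name 14 members were listed, and whether Hsf1 acts on each was not tested. They were Hspa1a, Hspa1b, Hspa8, Hspa4l, Hspb1, Hsph1, Hsp90aa1, Hsp90ab1, Dnaja1, Dnajb1, Dnajb4, Hspd1, Hspe1 and Bag3. Hspa8 and Hsp90ab1 are the constitutive forms named above. Of the 14, 0 passed in Q140 against Q20 at either age. Their median log2 fold change was −0.08 at 10 months with 2 of 14 above 0, and −0.01 at 6 months with 6 of 14 above 0, against medians of 0.00 and −0.01 over all genes. Against the 16 wild types of 10 months, those nearest the threshold were Hsp90ab1 at 0.06 and Hspe1 at −0.11, in opposite directions, and neither passed. For 9 tested genes studied in polyglutamine aggregation the medians against Q20 were −0.13 at 10 months and −0.06 at 6 months, with 1 of 9 above 0 at each age. Against the 16 wild types of 10 months, the Hspa median was 0.01 (9 of 12 above 0) and that of Hsp90 0.06 (3 of 3). It was 0.00 for Dnajb (6 of 11), −0.01 for Dnaja (1 of 4) and −0.01 for Bag (2 of 6). The medians against Q20 alone do not show that these genes are lower in Q140 than in wild types. Dnajb1 at 10 months had lowest, median and highest levels of 26.6, 33.6 and 38.8 CPM in Q140 and 29.1, 35.0 and 45.4 CPM in Q20. Hsph1 had 99.9, 118 and 149 CPM in Q140 and 115, 133 and 168 CPM in Q20, with a change of −0.16 ± 0.08 (adjusted p = 0.367), and the groups overlapped for both genes.

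In RefSeq promoters (GRCm38.p6), an 8-base core of 2 facing units, TTCNNGAA or GAANNTTC, was searched on both strands in the 250 bases before each start. It was found in 12.8% of 32851 promoters, in 17.4% of the 69 chaperone genes with an entry and in 6 of the 11 heat-inducible genes with an entry (54.5%), which were Dnaja1, Hspa1a, Hspa1b, Hspb1, Hspe1 and Hsph1. A match is a description of the sequence and not a binding site. Dnajb1 and Bag3, whose levels followed each other across libraries (below), have entries with 0 matches in either order. The stretches of Hspa1a and Hspa1b are shown because they differ at only 1 of 150 bases (149 alike), and that of Hsph1 as a gene with a match that also followed Dnajb1. The stretches shown span chr17:34972157-34972306, chr17:34959239-34959388 and chr5:149636337-149636486, all on the minus strand, and are written 5′ to 3′ with the core in capitals.
Hspa1a: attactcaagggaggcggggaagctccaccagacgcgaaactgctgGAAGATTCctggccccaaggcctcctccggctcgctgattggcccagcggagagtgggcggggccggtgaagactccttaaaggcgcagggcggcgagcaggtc
Hspa1b: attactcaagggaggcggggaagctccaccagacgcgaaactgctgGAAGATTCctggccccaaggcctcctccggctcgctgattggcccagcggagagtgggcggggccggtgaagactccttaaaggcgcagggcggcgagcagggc
Hsph1: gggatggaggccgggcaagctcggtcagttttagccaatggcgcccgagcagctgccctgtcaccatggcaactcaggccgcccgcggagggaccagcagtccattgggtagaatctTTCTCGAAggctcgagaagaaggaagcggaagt

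Across libraries of the same group and sex, some of these genes varied together and others did not. Over the 91 pairs of the 14 genes the median r was 0.58 at 10 months and 0.40 at 6 months. The lowest were −0.09 and −0.75, both between Hspa4l and Hspe1, and Dnajb1 with Hspa4l gave 0.02 and −0.07. Over the 84 pairs of a heat-inducible gene with an abundant Cct gene the median was 0.52 and 0.22. Over the 140 pairs with an ER member it was 0.27 and 0.21. At 10 months, correlation was thus not particular to the heat-inducible genes. With group and sex removed, Dnajb1 was set over 48 libraries of each age against 6 of the heat-inducible genes and Cirbp, the cold-inducible RNA-binding protein, whose mRNA rises as temperature falls. At 10 months Pearson's r was 0.82 with Hspa8, 0.81 with Hsph1, 0.64 with Bag3, 0.62 with Hspa1b, 0.58 with Hspa1a and 0.50 with Hsp90aa1. At 6 months r was 0.77 with Bag3, 0.76 with Hspa8, 0.74 with Hsph1, 0.68 with Hspa1a, 0.64 with Hspa1b and 0.39 with Hsp90aa1. Spearman's rho lay between 0.39 and 0.78 at 10 months and between 0.21 and 0.77 at 6 months, with Hsp90aa1 lowest at each age. Adjusted over the 14 relations, permutation p-values with 100000 resamples were between 1.4e-05 and 0.00603 for r, where 1e-05 is the smallest unadjusted p they can give, and rho for Hsp90aa1 at 6 months did not pass (adjusted p = 0.156). Without the 2 libraries farthest from the median of Dnajb1, r with Hsp90aa1 was 0.36 at 10 months and 0.21 at 6 months, and r with each of the other 5 genes was at least 0.53. Without the far libraries, r with Hsp90aa1 was 0.39 at 10 months and 0.58 at 6 months (adjusted p = 0.000312).

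Cirbp went the other way. Its r with Dnajb1 was −0.87 at 10 months and −0.72 at 6 months (rho −0.85 and −0.69; adjusted permutation p = 1.4e-05 for each), and −0.87 and −0.64 without the 2 farthest libraries. The library highest in Dnajb1 at 10 months, from a Q20 male, held 45.4 CPM of Dnajb1, 2240 CPM of Hspa8, 168 CPM of Hsph1 and 50.1 CPM of Cirbp. The lowest, from a Q140 male, held 26.6 CPM of Dnajb1, 1565 CPM of Hspa8, 115 CPM of Hsph1 and 123 CPM of Cirbp. The groups overlapped along this relation: Cirbp ran from 65.1 to 123 CPM in Q140 and from 50.1 to 99.6 CPM in Q20 at that age, a log2 fold change of 0.32 ± 0.14 (adjusted p = 0.270). Body temperature and the hour of dissection are not recorded in the labels, and their part in this relation was not tested.

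**Figure D4:**
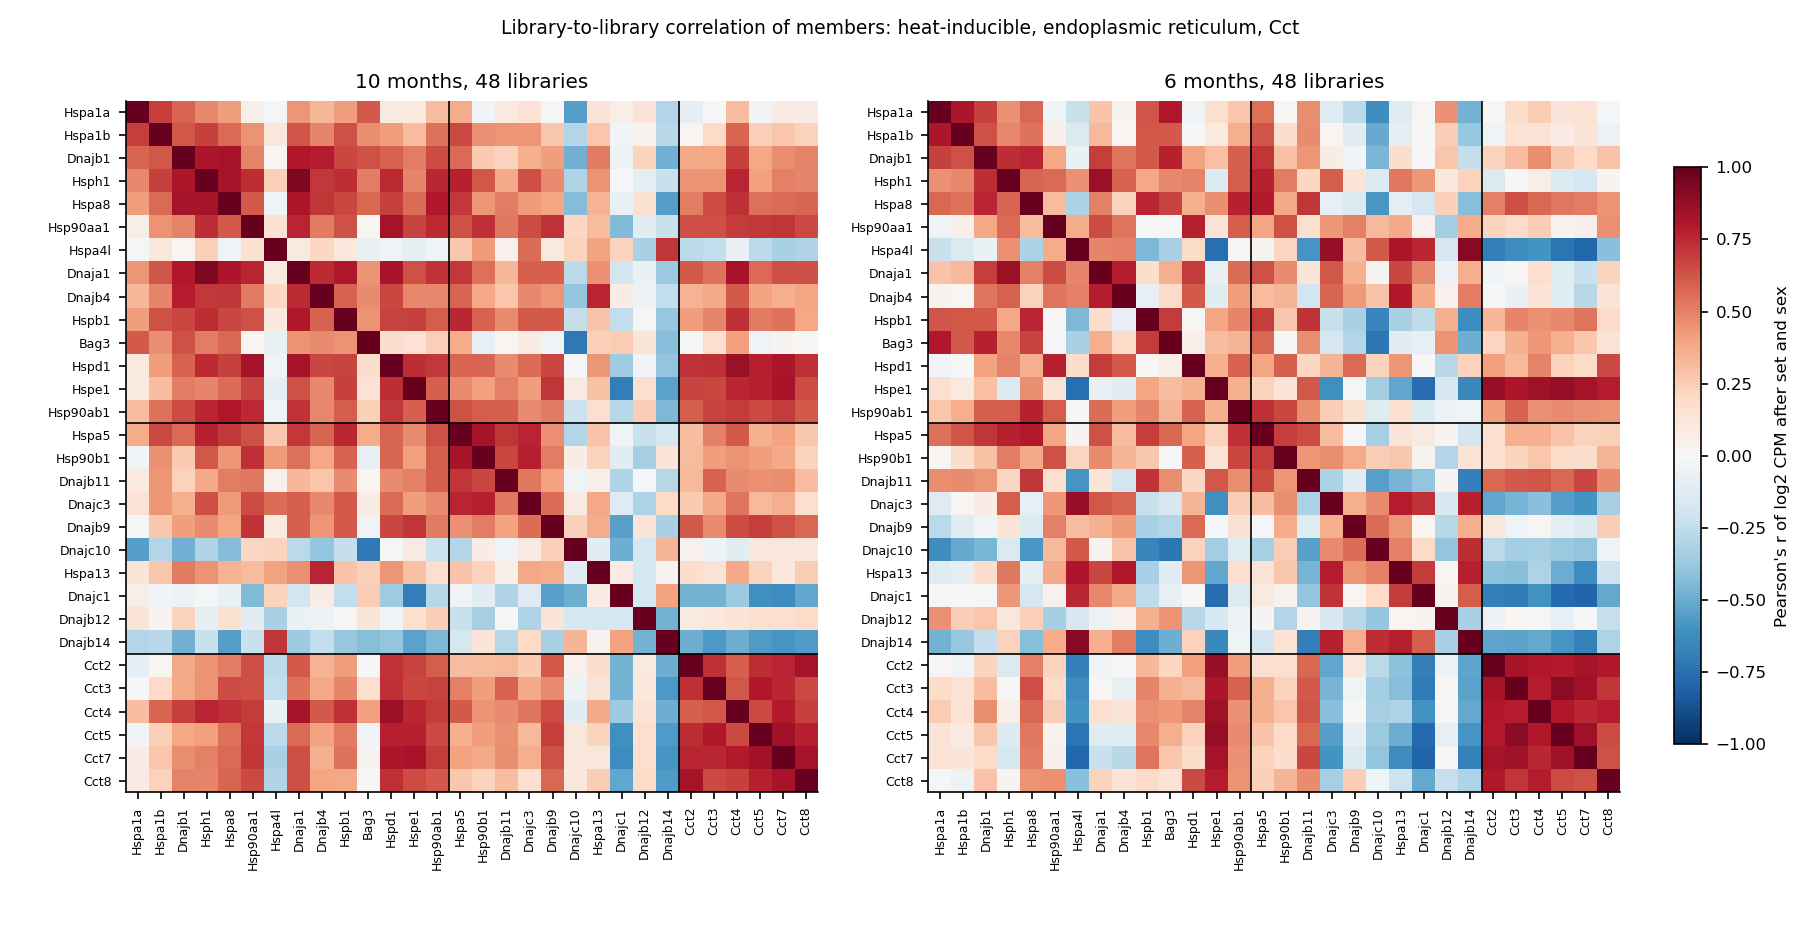
Pearson's r over 48 libraries of an age between the log2 CPM of pairs of genes, after group and sex were removed, for heat-inducible, ER and Cct genes at 10 months (left) and 6 months (right), red positive and blue negative. Dnajb1 and Hspa8 are at 0.82 at 10 months and 0.76 at 6 months, Hspa5 and Hsp90b1 at 0.82 and 0.69, and the lowest pair of Cct genes is at 0.60 and 0.64.

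The 10 ER members were grouped by compartment. Some ER chaperone genes are targets of the unfolded protein response, in which the factors Xbp1 and Atf6 act through an ER stress element in the promoter. None of the 10 passed in any genotype comparison, with median log2 fold changes of Q140 over Q20 of 0.01 at 10 months and 0.03 at 6 months. Dnajb11, the co-chaperone of Hspa5, was nearest at 10 months, at −0.13 ± 0.05 (adjusted p = 0.207); like Hspa13 and the genes named for being at 0, it was chosen for mention after its values were seen. The element, CCAAT and CCACG set 9 bases apart, was searched on both strands in the same 250 bases and was present in 37 of 32851 promoters (0.113%) and in 3 of the 69 chaperone genes (4.35%), namely Hspa5, Hsp90b1 and Dnajc3. Among ER folding genes outside the symbol rule it was present in 4 of the 14 with an entry, which were Calr, Canx, Creld2 and Pdia6. Of these 3, Hsp90b1 was called below with both sex and age, Hspa5 with sex only and Dnajc3 with age only. Other genes called with sex, Dnaja4 and Hspb6, or with age, such as Dnajb9, Dnajb14 and Dnajc10, had no match to the element. The 3 promoters with a match are shown with the element in capitals: Hspa5 at chr2:34771940-34772089 on the plus strand, Hsp90b1 at chr10:86705445-86705694 on the minus strand, which holds the element once in each orientation, and Dnajc3 at chr14:118937782-118937931 on the plus strand.
Hspa5: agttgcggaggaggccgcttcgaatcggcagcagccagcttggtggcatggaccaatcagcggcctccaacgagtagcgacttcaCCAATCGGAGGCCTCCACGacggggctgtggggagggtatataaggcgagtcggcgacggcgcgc
Hsp90b1: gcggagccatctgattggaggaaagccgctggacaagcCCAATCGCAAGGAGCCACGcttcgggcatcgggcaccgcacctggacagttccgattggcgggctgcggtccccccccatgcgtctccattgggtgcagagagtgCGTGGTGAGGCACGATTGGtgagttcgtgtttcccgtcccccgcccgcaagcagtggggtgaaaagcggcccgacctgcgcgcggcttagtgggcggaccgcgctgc
Dnajc3: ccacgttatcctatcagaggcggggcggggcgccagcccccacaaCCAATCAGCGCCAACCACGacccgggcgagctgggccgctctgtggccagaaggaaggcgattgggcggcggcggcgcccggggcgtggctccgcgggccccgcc

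Hspa5 followed some ER members across libraries and not others. Over 48 libraries with group and sex removed, r with Hsp90b1 was 0.82 at 10 months and 0.69 at 6 months (rho 0.79 and 0.68), and r with Dnajb11 was 0.72 and 0.65 (rho 0.68 and 0.64), each with an adjusted permutation p of 3.6e-05 over 18 relations. With Dnajc3, an inhibitor of the stress kinase Perk that also acts as an ER co-chaperone, r was 0.76 at 10 months (adjusted p = 3.6e-05) and 0.31 at 6 months (adjusted p = 0.0772). With Dnajb9, another Hspa5 partner, r was 0.46 at 10 months and −0.02 at 6 months. With Dnajc10, an ER disulfide reductase, r was −0.29 and −0.33 (adjusted p = 0.0874 and 0.0501), and rho at 6 months was −0.44 (adjusted p = 0.00504). Without the 2 libraries farthest from the median of Hspa5, r with Hsp90b1 was 0.82 and 0.62, with Dnajb11 0.65 and 0.61 and with Dnajc3 0.80 and 0.21. Without the 11 far libraries of 6 months, r with Dnajc3 at that age was 0.63 (adjusted p = 0.00012). Over all 45 pairs of the 10 ER members the median r was 0.07 at 10 months and 0.13 at 6 months, so the relation was not shared by the list. The 15 pairs of the 6 abundant Cct subunits had a median r of 0.75 at 10 months and 0.80 at 6 months, with 0.60 and 0.64 as the lowest, as a description over the same libraries.

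Between the sexes, 2 of the 10 ER members and 2 other chaperone genes differed. Of 80 genes tested over all 96 libraries, 4 passed in males against females, which is 5.0% of those tested, where 5.39% of all 17384 genes passed. Of the 4, 3 were higher in males, where 2.15% of all genes were, and 1 was lower, where 3.24% were. Hsp90b1 was higher in males, with lowest, median and highest levels of 311, 355 and 493 CPM in 48 male libraries and 292, 341 and 406 CPM in 48 female libraries (log2 fold change 0.13 ± 0.02; adjusted p = 7.2e-05). Hspa5 was higher, with 191, 241 and 359 CPM in males and 186, 222 and 310 CPM in females (0.12 ± 0.03; adjusted p = 0.0247). The ranges overlapped across all libraries, and within the 12 groups the male mean lay above the female mean in 8 for Hsp90b1 and in 10 for Hspa5, with no overlap in 4 and 3 of them.

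The other calls were smaller. Dnaja4, a cytosolic J-domain gene, was higher in males, at 40.9, 45.9 and 51.1 CPM, than in females, at 38.3, 43.6 and 48.5 CPM (0.06 ± 0.02; adjusted p = 0.0139; male mean above the female mean in 11 of 12 groups). Hspb6 was lower in males, at 6.33, 7.72 and 10.1 CPM, than in females, at 6.87, 8.27 and 11.1 CPM (−0.10 ± 0.03; adjusted p = 0.0372; male mean below in 10 of 12 groups, the 2 others having it above). The sexes overlapped for both genes. Without the libraries far from the rest, 10 of the chaperone genes passed in place of 4, as 2091 of all genes did in place of 937. Hspb6 did not pass with no filter on low counts (adjusted p = 0.0721) or with limma on FPKM (adjusted p = 0.0631).

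**Figure D5:**
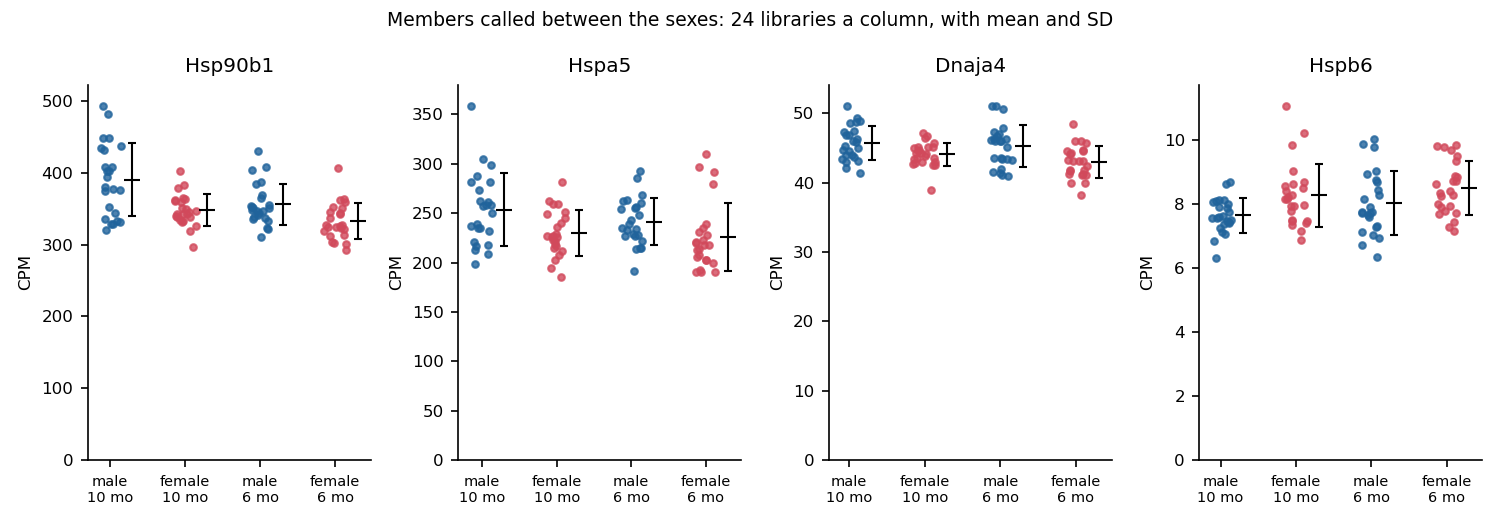
CPM of individual libraries for the genes called between the sexes, with males left of females at each age and a dash and bar for the mean and SD of 24 libraries. Hsp90b1 at 10 months averaged 390 ± 50.8 CPM in males and 348 ± 22.1 CPM in females (SD, n = 24 each), and at 6 months 356 ± 28.8 CPM in males and 333 ± 25.4 CPM in females.

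At each age alone the sex calls were fewer. At 10 months 3 of 77 genes passed, against 5.98% of all genes: Hsp90b1 at 0.16 ± 0.04 (adjusted p = 0.0171), Dnajb6 at 0.05 ± 0.02 (adjusted p = 0.0470) and Dnaja2 at 0.06 ± 0.02 (adjusted p = 0.0498). At 6 months 0 of 77 passed in edgeR, against 0.946% of all genes, with 7 of 77 at an unadjusted p under 0.05 (9.09%, against 10.0% of all genes), and Hsp90b1 was nearest at 0.10 ± 0.03 (adjusted p = 0.138). Among the 17 ER folding genes outside the rule, 3 were higher in males over all libraries and 0 lower. Over all genes, 2.15% were higher and 3.24% lower. The 3 were Hyou1, the ER nucleotide exchange factor, at 0.10 ± 0.02 (adjusted p = 0.00468), the lectin chaperone Calr at 0.11 ± 0.03 (adjusted p = 0.00982) and Creld2 at 0.12 ± 0.03 (adjusted p = 0.0191). Fkbp5, a glucocorticoid-induced co-chaperone of Hsp90, was lower in males at −0.25 ± 0.07 (adjusted p = 0.0271), with a median of 8.64 CPM in males and 10.6 CPM in females. Of 13 temperature and clock genes, 2 were higher and 4 lower in males, beside the same shares of all genes (2.15% and 3.24%). Their part in the sex calls was not tested.

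Age gave the largest number of calls, at a rate close to that of all genes. Of 80 genes, 30 passed in 10 months against 6 months (37.5%), where 40.7% of all genes passed, and the ages carry separate runs of library numbers, so that age and library series cannot be told apart. Among the 30, 18 were higher at 10 months and 12 lower, where 20.0% of all genes were higher and 20.7% lower. All changes were small. They ran from −0.14 to 0.16 on the log2 scale among those called.

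The genes with the largest rises at 10 months were Dnajc27, Dnajc3 and Dnajc6. Dnajc27, a Rab-like GTPase with a J domain, had lowest, median and highest levels of 122, 152 and 190 CPM at 10 months and 90.9, 141 and 173 CPM at 6 months (log2 fold change 0.16 ± 0.03; adjusted p = 4.4e-05). Dnajc3 had 85.4, 102 and 119 CPM at 10 months and 68.0, 95.2 and 110 CPM at 6 months (0.15 ± 0.02; adjusted p = 1.7e-06). Dnajc6 had 244, 275 and 293 CPM at 10 months and 161, 260 and 296 CPM at 6 months (0.14 ± 0.03; adjusted p = 0.000621). The ranges overlapped for each, with the low ends at 6 months well below those at 10 months. Of the 10 ER members, 6 were higher and 0 lower, where 20.0% of all genes were higher and 20.7% lower. Their median was 0.07 against 0.00 over all genes, and Hsp90b1 was among those higher at 0.10 ± 0.02 (adjusted p = 0.000517).

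The members lower at 10 months were led by Dnajc4, a little studied J-domain gene, with 11.4, 13.7 and 16.02 CPM at 10 months and 11.7, 14.9 and 23.6 CPM at 6 months (−0.14 ± 0.03; adjusted p = 0.000814). Hspe1 had 29.4, 33.3 and 58.7 CPM at 10 months and 30.4, 34.9 and 57.3 CPM at 6 months (−0.12 ± 0.04; adjusted p = 0.00452). Dnajb5, an Hsp70 partner studied in heart muscle, had 54.0, 76.6 and 84.4 CPM at 10 months and 66.9, 79.9 and 98.2 CPM at 6 months (−0.09 ± 0.02; adjusted p = 0.000437). The ages overlapped for all 3 genes. Without the libraries far from the rest, 17 chaperone genes passed in place of 30, as 3312 of all genes did in place of 7075, and Dnajc4 (adjusted p = 0.174) and Dnajb5 (adjusted p = 0.0608) did not.

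Over all genes, 20.0% were higher at 10 months and 20.7% lower, and each count that follows is to be read beside those shares. By group, 2 of 14 heat-inducible genes were higher at 10 months and 1 lower, and among 8 mitochondrial genes 1 was higher and 2 lower. Outside the rule, 6 of 9 chaperonin and prefoldin subunits were lower and 0 higher, with Pfdn6 at −0.16 ± 0.04 (adjusted p = 0.000276) and Pfdn1 at −0.14 ± 0.03 (adjusted p = 0.000574), both subunits of the prefoldin complex that hands nascent actin and tubulin to the chaperonin. Of the 24 co-chaperones and regulators 3 were higher and 11 lower, with Sugt1, an Hsp90 partner, at 0.15 ± 0.03 (adjusted p = 1.0e-05) and Hsf1 at −0.11 ± 0.03 (adjusted p = 0.00082). Among the 17 ER folding genes 4 were higher, led by the lectin chaperone Canx at 0.12 ± 0.02 (adjusted p = 8.8e-07), and 3 were lower, among them Atf4, a factor of the stress response, at −0.10 ± 0.03 (adjusted p = 0.0047). Microglia markers moved with age as well, with 9 of 10 higher and a median of 0.20, and 8 of 13 temperature and clock genes were lower and 2 higher. Their part in the chaperone values was not tested.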

How the data were processed

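The genes and gene lists were chosen with earlier results of these data known. RNA was extracted from flash-frozen tissue with the Qiagen miRNeasy kit, per the labels' protocols, and CASAVA 1.8.2 is named in the submitters' processing notes. The aligner, the quantification tool and the build were not given in the sources used here. The authors deposited estimated counts per gene, which need not be whole (81.6% of values were) and were rounded here, and an FPKM table scaled by length and depth. Symbols came from GENCODE M21 for 37693 of 39179 identifiers. Genes were filtered with filterByExpr (minimum count 10, minimum total 15), scaled by TMM and tested with edgeR 4.0.16 in R 4.3.3: within an age, group and sex over 48 libraries, and for sex, age and interactions, 24 groups over 96 libraries. Only the fit within 10 months, for Q140 against Q20, was tried on simulated data, and the fit of 24 groups was not. The slope was a linear contrast over 20, 50, 92 and 140 CAG. Alternatives were DESeq2 1.42.0, RLE scaling, no filter, limma 3.58.1 on log2(FPKM + 0.1), fewer libraries, the 16 wild types, and each library left out. The L number, which follows the letter L in a library's name and is not explained in the labels, was also used as a factor. So was the replicate number. Same-numbered libraries correlated above 0.1 in only 1 to 4 of 8 pairs per comparison, so the numbers were not used as pairs. Named by rule were 39 genes: all those called where at most 8 were, otherwise the 3 highest and 3 lowest called, the 2 with the highest FPKM of each family, the 6 most and 3 least variable, a fixed list of 21, and up to 4 called genes of each outside list. All 144 pairs of replicates differed by more than counting noise.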

Additional observations from a re-analysis of the deposited data

Results flagged for a closer look

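For 12 chaperone genes, the highest or lowest library of each group of 8 was set against its nearest neighbour, in 144 groups of values. In 11 the gap exceeded Dixon's 95% critical value for a group of 8, where chance alone gives about 1 in 20. Hspb8 stood out 4 times: 16.2 CPM in replicate 4 of the Q140 females at 6 months, against 10.4 to 12.5 CPM in the other Q140 libraries; 19.5 CPM in replicate 4 of the Q92 males at 6 months, against 12.1 to 14.6 CPM; 26.4 CPM in replicate 2 of the Q92 females at 10 months, against 12.3 to 17.3 CPM; and 32.4 CPM in replicate 2 of the Q50 males at 10 months, against 12.1 to 19.0 CPM. Hsp90b1 stood out in replicate 3 of the Q92 males at 6 months (430.02 CPM, against 337 to 365 CPM) and in replicate 2 of the male wild types of Q50 cages at 10 months (448.05 CPM, against 320 to 366 CPM).

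Hspa8 reached 2239.6 CPM in replicate 3 of the Q20 males at 10 months, against 1606 to 1851 CPM in the other Q20 libraries. Hspa1a reached 9.33 CPM in replicate 1 of the female wild types of Q50 cages at 10 months, against 3.91 to 5.45 CPM. Dnaja4 reached 51.1 CPM in replicate 4 of the male wild types of Q20 cages at 6 months, against 41.1 to 44.8 CPM. Hspb6 reached 11.1 CPM in replicate 3 of the Q50 females at 10 months, against 7.60 to 8.69 CPM. Hspb1 was low, at 2.54 CPM, in replicate 2 of the female wild types of Q20 cages at 6 months, against 5.37 to 7.13 CPM.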

How the results depend on the processing

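The count of chaperone genes called stayed at 0 under every alternative run in the Q92, Q50 and Q20 comparisons. It became 1 in Q140 against Q20 at 6 months with DESeq2, 1 in the slope at 6 months with RLE scaling, DESeq2, limma on FPKM and the compared libraries alone, and 1 in Q140 against Q20 at 10 months with the compared libraries alone. Leaving out each library gave 0 to 1 in Q140 against Q20 at 6 months, where 17 to 900 of all genes passed. For the slope at 6 months it gave 0 to 3, where 13 to 1294 of all genes passed. With the replicate block, run for the genotype comparisons and slopes only, the count was 0 in each. For sex, 4 became 3 with no filter and with limma on FPKM, where Hspb6 did not pass, 10 without the far libraries and 0 at 6 months alone (the split by age was chosen after seeing the data), and for age 30 became 17 without the far libraries. The correlation of Hspa5 with Dnajc1 at 10 months, −0.04, was 0.35 without the far library. The cause was not tested. Over all genes, Q140 against Q20 gave 353 calls at 10 months, 112 with the L number as a factor and 784 without the far library. With the compared libraries alone it gave 968. At 6 months it gave 25 calls, 173 with DESeq2, 6 without the far libraries and 16 with the compared libraries alone. The slope at 6 months gave 39 calls over all genes, 46 with RLE scaling, 231 with DESeq2, 33 with limma on FPKM and 53 with the compared libraries alone.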
